A study of Homo sapiens with 6 samples.

Results

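The FGF receptors FGFR1, FGFR2, FGFR3 and FGFR4 with the ligand FGF2, the MET family receptors MET and MST1R (RON), and the TAM receptors AXL, TYRO3 and MERTK were examined in METTL3-depleted lung cancer cells. These 10 genes were chosen by name, and all 10 were found among the 57781 rows of the count table. All of them also passed the filter on low counts that left 15125 genes for testing. RNA-seq had been performed on 6 libraries of A549, an established human lung adenocarcinoma line whose labels give its cell type as NSCLC (non-small cell lung cancer). The 3 vector libraries were labelled WT and came from control A549 cells, and the 3 shMETTL3 libraries came from A549 cells with METTL3 knockdown by short hairpin RNA. Both groups were grown alike in DMEM with fetal bovine serum. METTL3 is the catalytic subunit of the complex that writes N6-methyladenosine (m6A) on mRNA. The sources used here do not state how many hairpins were used or whether a clone or a pool was sequenced, nor do the labels say that replicates were separate cultures. The study's methods say in general that experiments were repeated independently, without naming these libraries, so p-values measure the spread between these libraries, which may be technical.

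Receptor tyrosine kinases span the plasma membrane, pair up when a ligand binds outside the cell, and phosphorylate each other and their adaptors inside. FGF receptors bind FGFs together with heparan sulfate or klotho proteins and signal largely through the docking protein FRS2, and FGF2 is a heparin-binding ligand of several of them. MET is the receptor of hepatocyte growth factor (HGF), and its paralog RON, encoded by MST1R, binds macrophage-stimulating protein, encoded by MST1. AXL, TYRO3 and MERTK bind the vitamin K-dependent protein GAS6, and TYRO3 and MERTK also bind its relative protein S (PROS1). In lung adenocarcinoma, MET and AXL are known for bypass signalling when EGFR is inhibited.

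Library totals ranged from 14931426 to 19108928 counts. Levels are given as CPM, counts scaled to a common library total after correction by the trimmed mean of M values (TMM), and 3 counts equalled 0.1496 to 0.189 CPM. The targeted gene, METTL3, was counted 887, 846 and 808 times in vector and 364, 399 and 307 times in shMETTL3. It fell by 1.36 on the log2 scale (SE 0.0673, edgeR adjusted p = 4.57e-16), from 49.9 ± 0.676 to 19.4 ± 0.525 CPM (SD, n = 3 each, as for all values with ± below). Of 6 epithelial markers, 5 were lower in shMETTL3, among them EPCAM by 2.73 and CDH1 by 0.58 on the log2 scale, and KRT7 was higher by 0.29. The summed epithelial level was 9971 to 10630 CPM in vector and 5153 to 5602 CPM in shMETTL3. The summed level of 5 leukocyte markers was 0.2993 to 0.9807 against 5.835 to 6.802 CPM. CD14 carried this, with 6, 5 and 16 against 125, 117 and 105 counts, while the defining leukocyte genes PTPRC and CD3E had at most 1 count in any library. Of the 4 endothelial markers used, VWF and EMCN were at 0, CDH5 had 0, 0 and 2 against 30, 28 and 30 counts, and the sum was 0 to 0.1839 against 1.446 to 2.204 CPM. The sum of 6 fibroblast markers was 6.463 to 9.868 against 14.3 to 14.71 CPM. COL1A1 carried most of it, with 72, 103 and 110 against 192, 214 and 171 counts (log2 fold change 0.90, edgeR adjusted p = 3.47e-06), while COL1A2 was at 0 in every library but 1, where it had 3 counts. LUM had 42, 30 and 43 against 74, 60 and 38 counts, with overlapping groups, and did not pass (edgeR adjusted p = 0.0621). DCN had 0, 0 and 0 against 7, 4 and 2 counts. The part of these markers in the results below was not tested, and in bulk RNA a change in the share of cells expressing a gene cannot be told apart from a change in RNA per cell.

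AXL and MST1R had the largest rise and the largest fall among the receptors above 2 on the average log2 CPM scale, so their promoters are shown. Each is the 250 bases before the start of the canonical transcript, from the GRCh37 genome, 5′ to 3′ on the gene's strand, and capitals mark GC boxes, the Sp1 family motif GGGCGG on either strand. The AXL window lies at chr19:41724878-41725127 on the plus strand, and the MST1R window at chr3:49941307-49941556 on the minus strand.
AXL: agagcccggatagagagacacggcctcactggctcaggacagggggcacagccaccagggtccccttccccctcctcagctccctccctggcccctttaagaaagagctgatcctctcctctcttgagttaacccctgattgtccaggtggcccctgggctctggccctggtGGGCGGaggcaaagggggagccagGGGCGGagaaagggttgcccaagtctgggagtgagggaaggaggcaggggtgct
MST1R: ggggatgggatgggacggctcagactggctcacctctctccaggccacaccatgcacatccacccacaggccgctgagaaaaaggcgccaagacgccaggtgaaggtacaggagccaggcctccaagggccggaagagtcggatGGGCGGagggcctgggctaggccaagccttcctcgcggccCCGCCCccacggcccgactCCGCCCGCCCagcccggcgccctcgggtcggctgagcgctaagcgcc
The AXL promoter held 2 GC boxes in 64.4% GC, and the MST1R promoter held 4 in 70.8% GC, 2 of which overlap each other. Each of the 10 promoters held at least 1 GC box, as did 71.8% of 12462 promoters of the same length. The AP-1 motif TGANTCA (N, any base), searched on both strands, was found only in the TYRO3 promoter among the 10, against 3.64% of all promoters. The TEAD motif GGAATG was found only in the FGFR1 promoter, against 8.77% of all promoters. A match describes the letters of the window and is no evidence of binding.

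The consensus around methylated adenosines has GGACT as its most common core, and matches in the transcripts were counted because METTL3 is the enzyme that uses it. Matches per canonical transcript ranged from 0 in FGFR4 to 11 in MET. Per kilobase, FGFR2 held 2.16, AXL 1.7, MET 1.61 and FGFR1 1.58, above the median of 0.922 over 12462 genes, and at least 82.5% of genes held fewer in each case. FGFR3 with 0.93, MST1R with 0.838, MERTK with 0.784 and TYRO3 with 0.747 lay nearer to the median, and FGF2 held a single match, in its 3′ untranslated region. Only FGFR1, MET and TYRO3 had a match within 200 bases of the coding end, which 37.6% of genes had. The last coding match of 4 receptors with called changes is shown with its 30-base surroundings in GRCh37, 5′ to 3′ on the gene's strand, with that match in capitals. They lie at chr10:123243286-123243315 on the minus strand in exon 17 of FGFR2, at chr7:116417454-116417483 on the plus strand in exon 16 of MET, and at chr3:49932669-49932698 on the minus strand in exon 14 of MST1R. The AXL window runs across an exon junction, between chr19:41763517 and 41765469 on the plus strand, with the match in exon 19.
FGFR2: acatgatgatgagGGACTgttggcatgcag
MET: tgtgtatatcatgGGACTttgttggacaat
MST1R: agctaagggacctGGACTctgcgctcttgg
AXL: ggactgtctggatGGACTgtatgccttgat

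Of the 10 genes, 9 changed at an edgeR adjusted p under 0.05, 6 higher and 3 lower, and FGFR3 did not pass. These counts stand beside a background in which 66.6% of all tested genes changed, 33.7% higher and 32.9% lower. At an absolute log2 fold change of at least 1, 5 of the 10 passed, FGFR2, AXL and FGF2 higher and FGFR4 and MST1R lower, against 17.6% of all tested genes. The vector and shMETTL3 libraries did not overlap for any of the 10, which also held for 69.4% of all tested genes. With 3 libraries against 3, an exact permutation test of 1 gene could not go below p = 0.1. The median log2 fold change of the 10 was 0.77, and that of all tested genes was 0.00218. Without TMM scaling, on library size alone, the median of all genes was 0.176, and changes below are relative to the TMM scale.

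**Figure D1:**
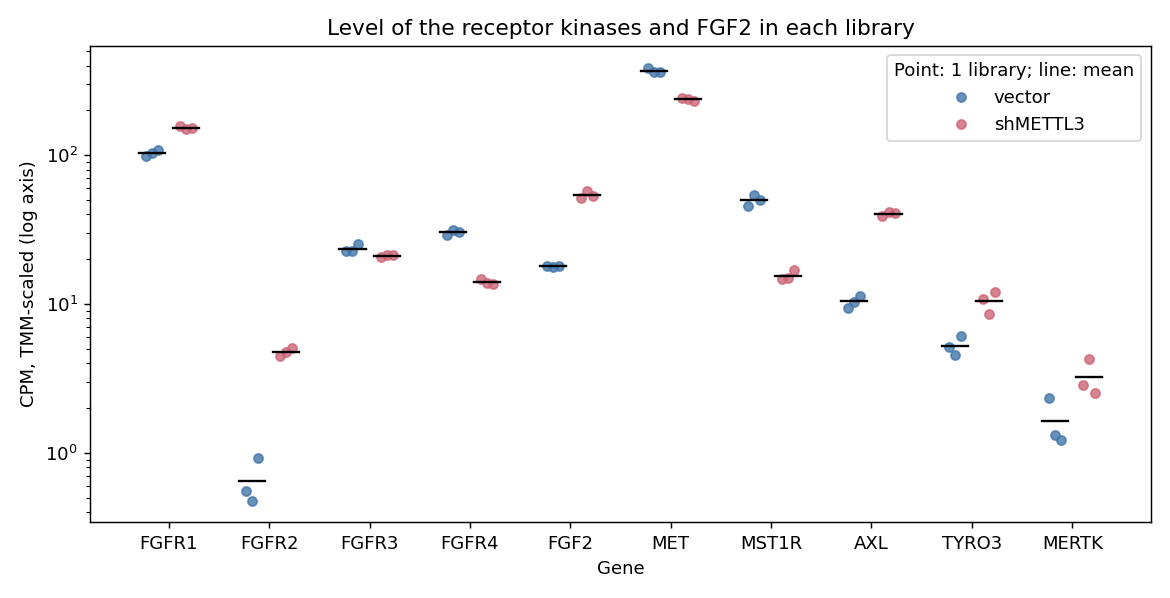
Level of the 10 genes in each of the 6 libraries in CPM on a log axis, with 3 vector and 3 shMETTL3 libraries as points and the group mean as a line. The groups are apart for every gene, by little in FGFR3, where the lowest vector library was at 22.7 and the highest shMETTL3 library at 21.5 CPM, and in MERTK, where the highest vector library was at 2.34 and the lowest shMETTL3 library at 2.52 CPM.

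**Figure D2:**
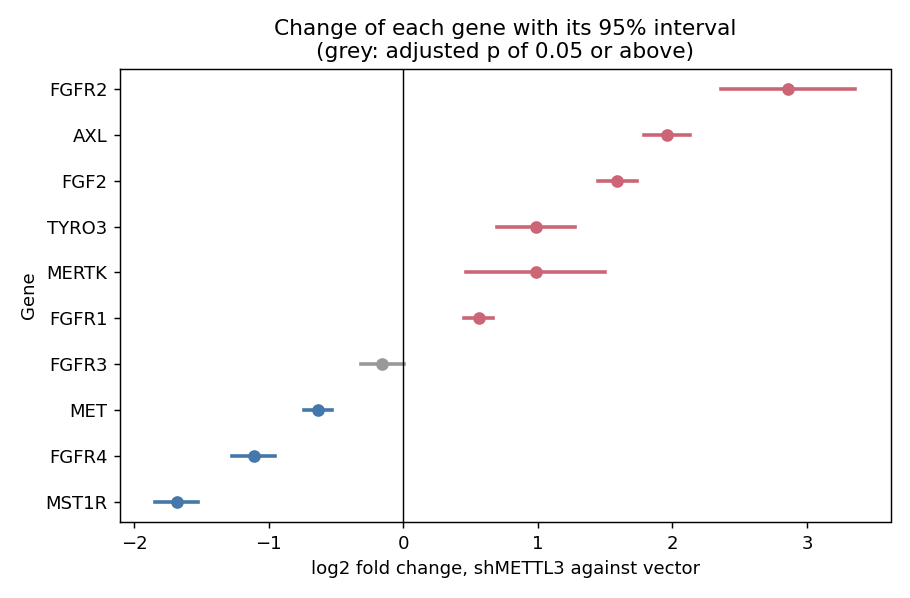
log2 fold change of shMETTL3 against vector for each gene from edgeR, with bars for the 95% interval. FGFR2 lies at 2.86 and AXL at 1.96 on the higher side, MST1R at -1.68 and FGFR4 at -1.11 on the lower side, and the FGFR3 interval spans 0.

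Of the 4 FGF receptors, FGFR1 and FGFR2 rose, FGFR4 fell and FGFR3 did not pass the test. FGFR1 (chr8:38257733-38326352, minus strand), the receptor for many FGFs in mesenchymal cells, was at 99.3, 104 and 108 CPM in the vector libraries and at 157, 150 and 152 CPM in the shMETTL3 libraries. All shMETTL3 libraries were above all vector libraries, and FGFR1 rose 1.47-fold (log2 fold change 0.56, SE 0.052, edgeR adjusted p = 3.02e-10). Its exons share 138 bases with LETM2 and 387 bases with an antisense lncRNA. LETM2 fell by 0.52 on the log2 scale (edgeR adjusted p = 0.000551), and since the strand setting of the counting was not stated, reads in the shared bases cannot be assigned to 1 strand.

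FGFR2 (chr10:123237846-123357972, minus strand), which in epithelia is made as the isoform that binds FGF7 and FGF10, was close to silent in control cells. Only 10, 8 and 15 counts were found in vector, against 87, 95 and 80 in shMETTL3. This rise was 7.27-fold, from 0.652 ± 0.235 to 4.76 ± 0.267 CPM (log2 fold change 2.86, SE 0.243, 95% interval 2.36 to 3.36, edgeR adjusted p = 4.5e-11). It was the largest fold of the 10, on the lowest level of the 10 per length in both groups. The gene-level counts do not tell the epithelial from the mesenchymal isoform.

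FGFR3 (chr4:1795020-1810599, plus strand), a receptor best known for restraining bone growth, was at 22.7, 22.7 and 25.3 CPM in vector and at 20.6, 21.5 and 21.4 CPM in shMETTL3. The vector libraries were all slightly higher, but the difference missed the threshold (log2 fold change -0.15, 95% interval -0.312 to 0.003, edgeR adjusted p = 0.0781). On library size alone its sign turned (log2 fold change 0.02, edgeR adjusted p = 0.825, with adjusted p from 0.0553 to 0.825 over all alternatives run).

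FGFR4 (chr5:176513906-176525145, plus strand), the receptor that with KLB takes up the FGF19 signal in liver, was at 29.2, 31.4 and 30.5 CPM in vector and at 14.7, 13.8 and 13.6 CPM in shMETTL3. Each shMETTL3 library lay well under the lowest vector library, and FGFR4 fell to 46.3% of the vector level (log2 fold change -1.11, SE 0.0778, edgeR adjusted p = 9.27e-13). It was the FGF receptor with the strongest fall, and the only one of the 10 genes with no GGACT in its canonical transcript.

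FGF2 (chr4:123747837-123819391, plus strand), the ligand, was at 18.1, 17.8 and 18 CPM in vector and at 51.8, 57.4 and 53.1 CPM in shMETTL3. The vector libraries differed little from each other, and FGF2 rose 3.01-fold (log2 fold change 1.59, SE 0.0699, edgeR adjusted p = 3.61e-17). FGF2 shares 804 exon bases with NUDT6 on the opposite strand. NUDT6 had 142, 103 and 92 counts in vector and 141, 134 and 89 in shMETTL3 (log2 fold change -0.01, edgeR adjusted p = 0.973), so the groups of NUDT6 overlapped while those of FGF2 did not.

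Levels of different genes are compared per kilobase of merged exons. By this measure FGFR4, at 6.31 ± 0.227, and FGFR1, at 6.03 ± 0.244 CPM per kb, had overlapping levels in vector libraries, followed by FGFR3 at 4.86 ± 0.303. In shMETTL3 libraries FGFR1 led with 8.89 ± 0.221, FGFR3 followed with 4.36 ± 0.0983 and FGFR4 with 2.92 ± 0.116 CPM per kb. FGFR1 made up 35 ± 0.094% of the summed FGF receptor level in vector and 54.1 ± 0.64% in shMETTL3, and FGFR4 went from 36.6 ± 1.1% to 17.8 ± 0.49%. FGFR2 went from 0.2 ± 0.066% to 1.54 ± 0.1% of that sum. The sum itself was 17.2 ± 0.653 in vector and 16.4 ± 0.219 CPM per kb in shMETTL3, and its libraries overlapped. Per length of the longest transcript the sum was 32.1 ± 1.22 in vector and 34.7 ± 0.638 in shMETTL3, so its direction rested on the length used. With that length FGFR1 already led in vector, at 52.1 ± 0.16% of the sum, and was at 70.8 ± 0.47% in shMETTL3.

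**Figure D3:**
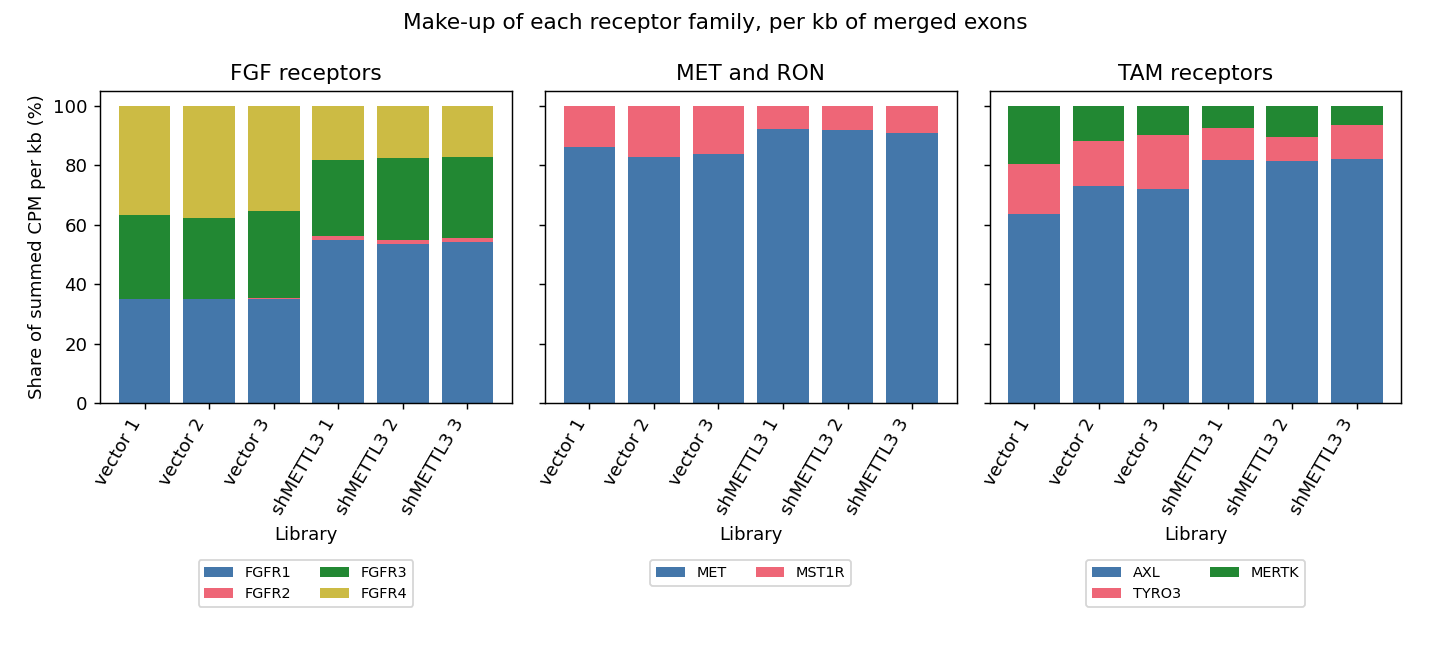
Share in percent of each receptor in the summed level of its family (CPM per kb of merged exons), as 1 stacked bar for each of the 6 libraries. In the FGF receptors, FGFR1 went from 35% to 54.1% and FGFR4 from 36.6% to 17.8%, while MET and AXL led their families in every library.

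Both receptors of the MET family fell. MET (chr7:116312250-116438431, plus strand), the HGF receptor, was at 388, 361 and 360 CPM in vector and at 243, 240 and 230 CPM in shMETTL3. The lowest vector library was above the highest shMETTL3 library, and MET fell to 64.3% of its vector level (log2 fold change -0.64, SE 0.0504, edgeR adjusted p = 1.22e-11). Per kilobase of merged exons it was the highest of the 10 genes in both groups, at 51.2 ± 2.15 in vector and 32.9 ± 0.97 CPM per kb in shMETTL3.

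MST1R (chr3:49924435-49941306, minus strand), which encodes RON and is found mainly in epithelial cells, was at 45.5, 53.7 and 50.1 CPM in vector and at 14.7, 15 and 16.9 CPM in shMETTL3. All vector libraries were far above all shMETTL3 libraries, and MST1R fell to 31.1% of the vector level (log2 fold change -1.68, SE 0.0785, edgeR adjusted p = 1.28e-16). Its exons share 327 and 29 bases with 2 antisense lncRNAs, for which reads could not be set apart without the strand setting. The summed epithelial marker level was lower in the same libraries, as given above, and its part in this fall was not tested. Within the pair, the share of MST1R was 15.7 ± 1.6% in vector and 8.26 ± 0.8% in shMETTL3 libraries. The sum of both receptors was 60.6 ± 1.51 in vector and 35.9 ± 0.748 CPM per kb in shMETTL3. Per kilobase of merged exons, MST1R was second of the 10 genes in vector at 9.48 ± 0.78 and lay beside FGFR4 in shMETTL3 at 2.96 ± 0.224, where their libraries overlapped. Both rested on the length used. Per length of the longest transcript, MST1R at 10.4 ± 0.858 lay behind FGFR1 at 16.7 ± 0.676 in vector. In shMETTL3, with that length, its libraries at 3.26 ± 0.246 were all under those of FGFR4 at 4.54 ± 0.181.

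All 3 TAM receptors rose. AXL (chr19:41725128-41767671, plus strand), a GAS6 receptor often raised in mesenchymal and drug-resistant carcinoma cells, was at 9.47, 10.4 and 11.4 CPM in vector and at 39.1, 41.6 and 40.7 CPM in shMETTL3. The shMETTL3 libraries were close together and far above the vector libraries, and AXL rose 3.89-fold (log2 fold change 1.96, SE 0.0818, edgeR adjusted p = 1.15e-17). Its exons share 67 bases with an antisense lncRNA. The 3 genes whose pattern over the 6 libraries was most like that of AXL were SYNM, an intermediate filament protein, NUAK1, an AMPK-related kinase, and RNF157, a RING finger protein. Their root mean square distances on the log2 scale, each gene centred on its vector mean, were 0.0456, 0.0507 and 0.0598, among 15124 genes compared.

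TYRO3 (chr15:41849873-41875787, plus strand), a TAM receptor best known from the nervous system, was at 5.18, 4.55 and 6.07 CPM in vector and at 10.9, 8.63 and 12 CPM in shMETTL3. The groups were apart, though the shMETTL3 libraries were more spread out than those of AXL, and TYRO3 rose 1.98-fold (log2 fold change 0.99, SE 0.14, edgeR adjusted p = 6.56e-07). Its pseudogene TYRO3P, which could share reads with it, had 0 counts in each vector library and 2, 1 and 2 in shMETTL3.

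MERTK (chr2:112656184-112787138, plus strand), the TAM receptor through which macrophages clear dead cells, had 42, 22 and 20 counts in vector and 55, 86 and 40 counts in shMETTL3. As CPM these were 2.34, 1.32 and 1.23 against 2.85, 4.29 and 2.52, so vector 1 nearly reached shMETTL3 3. MERTK rose 1.98-fold with the largest standard error of the 10 (log2 fold change 0.98, SE 0.252, 95% interval 0.467 to 1.5, edgeR adjusted p = 0.00117). CD14, a gene of macrophages as well, rose in the same libraries, as given above, with PTPRC at or near 0. CD68, another macrophage gene of the same marker list, had 0, 0 and 0 counts in vector and 2, 0 and 1 in shMETTL3.

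AXL was the main TAM receptor transcript in both groups, at 69.7 ± 5.1% of the summed CPM per kb in vector and 81.8 ± 0.33% in shMETTL3. The sum went from 2.91 ± 0.163 to 9.63 ± 0.318 CPM per kb. TYRO3, at 0.489 ± 0.0709 in vector and 0.974 ± 0.158 CPM per kb in shMETTL3, and MERTK, at 0.394 ± 0.15 and 0.779 ± 0.228, overlapped in both groups. In shMETTL3, AXL at 7.88 ± 0.252 and FGF2 at 7.95 ± 0.428 CPM per kb also overlapped, while in vector they were at 2.03 ± 0.188 and 2.64 ± 0.0251.

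Genes next to the 10 on their chromosomes did not all share these changes. Among the 50 tested genes nearest to AXL, 0 had a log2 fold change as high as that of AXL, and their median was -0.25. The same count was 0 of 50 around FGFR2 (median 0.09) and 1 of 50 around FGF2 (median -0.04). Around MST1R, 3 of 50 neighbours fell at least as far, with a median of -0.16, and around FGFR4, 4 of 50 did, with a median of -0.38. Around MET, 7 of 50 did, with a median of -0.07. Of the other 3 that rose, FGFR1 had 7, MERTK 5 and TYRO3 3 of 50 neighbours with a rise at least as high as its own. Around FGFR3, which was not called, 22 of 50 fell at least as far, with a median of -0.07. For scale, 1545 of all 15125 tested genes were called higher and 1123 lower at an absolute log2 fold change of at least 1. Whether the neighbours differed from all tested genes was not tested.

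The genes that work with the FGF receptors were examined next. Of 21 other genes of the FGF family, 7 had no count, 10, those 7 included, had at most 3 counts in every library, and 3 were tested. These were FGF9, a secreted ligand, and FGF11 and FGF12, which are intracellular FGF homologous factors. Of the 3, 0 passed in edgeR, against 66.6% of all tested genes, and 0 passed in DESeq2 and 0 in limma-voom. Of these 3, 1, FGF9, had an unadjusted p under 0.05 in edgeR, the model fitted across all genes. FGF1 had 1, 0 and 0 counts in vector and 2, 2 and 6 in shMETTL3 and was not tested.

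Of 8 receptor partners of the FGF receptors, 6 were tested and 5 changed (83.3%, against 66.6% of all tested genes), 2 higher and 3 lower, with a median log2 fold change of -0.48. FRS2, the docking protein of the receptors, rose by a log2 fold change of 0.76 (SE 0.0806, edgeR adjusted p = 3.86e-09), from 16.5 ± 1.26 to 27.9 ± 1.51 CPM. Its paralog FRS3 changed by -0.81 (SE 0.17, edgeR adjusted p = 0.00015). KLB, the co-receptor for FGF19 and FGF21, rose by 0.56 on the log2 scale (SE 0.178, edgeR adjusted p = 0.00747), but was not called without vector 1 or without shMETTL3 1 (edgeR adjusted p up to 0.0845). FGFRL1, an FGF-binding receptor with no kinase domain, was at 108 ± 12.6 in vector and 68.2 ± 4.3 CPM in shMETTL3 (log2 fold change -0.66, edgeR adjusted p = 1.59e-09). FGFBP1, a secreted carrier that releases FGFs from the matrix, fell the most of this list, from 36.9 ± 4.51 to 9.6 ± 0.568 CPM (log2 fold change -1.94, SE 0.0929, edgeR adjusted p = 2.43e-16).

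All 9 feedback and target genes of FGF signalling were tested and 8 changed (88.9%, against 66.6% of all tested genes), 4 higher and 4 lower, with a median of -0.15. The count was 6 with DESeq2 and without vector 3, shMETTL3 1 or shMETTL3 3. ETV5, named here for this loss, was not called under 7 of 14 alternatives and turned its sign in 1, and SPRED1 was not called under 2. SPRY4 and IL17RD, inhibitors of receptor signalling, rose by log2 fold changes of 1.20 and 1.35, and SPRY1 rose by 0.35. SPRY1 was not called under 4 of 14 alternatives, with DESeq2 and without vector 2, vector 3 or shMETTL3 3, with adjusted p up to 0.0837. The transcription factor ETV4 fell by 0.76, and the inhibitors SPRED2 and DUSP6 each fell by 0.52 on the log2 scale. Inhibitors were thus found among both the genes that rose and the genes that fell.

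Of 11 MET and RON partners, 8 were tested and 7 changed (87.5%, against 66.6% of all tested genes), 2 higher and 5 lower, with a median of -0.44. HGF, the ligand of MET, had 27, 27 and 21 counts in vector and 16, 14 and 5 in shMETTL3 (log2 fold change -1.21, SE 0.337, edgeR adjusted p = 0.00238). MST1, which encodes the ligand of RON, was at 5.42 ± 0.203 in vector and 6.85 ± 0.561 CPM in shMETTL3 (log2 fold change 0.34, edgeR adjusted p = 0.0249), and it has near-identical copies that could share its reads. Of these, MST1P2 had 48, 60 and 47 counts in vector and 74, 85 and 53 in shMETTL3 (log2 fold change 0.33, edgeR adjusted p = 0.111). MST1L had 9, 2 and 7 against 10, 1 and 3 counts and was not tested. MST1 was not called under 6 of 14 alternatives, namely with DESeq2, with no filter and without vector 1, vector 2, shMETTL3 1 or shMETTL3 2, with adjusted p up to 0.106. PLXNB1, a semaphorin receptor that binds MET, went from 126 ± 5.68 to 52.2 ± 0.446 CPM (log2 fold change -1.27, SE 0.0548, edgeR adjusted p = 2.37e-17). The protease inhibitors of HGF activation moved apart, with SPINT2 at -0.76 and SPINT1 at 0.96 on the log2 fold change scale. GAB1, the main docking protein of MET, fell by 0.57 on the log2 scale.

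Of 9 TAM ligands and partners, 8 were tested and 4 changed (50%, against 66.6% of all tested genes), all of them higher, with a median of 0.17. GAS6, the ligand of all 3 TAM receptors, had 135, 86 and 102 counts in vector and 305, 302 and 227 in shMETTL3. It rose 2.38-fold, from 6.31 ± 1.19 to 15.1 ± 0.749 CPM (log2 fold change 1.25, SE 0.119, edgeR adjusted p = 5e-10). PROS1, the ligand of TYRO3 and MERTK, was at 37.5 ± 3.78 in vector and 39.1 ± 0.874 CPM in shMETTL3, and its groups overlapped (log2 fold change 0.06, 95% interval -0.089 to 0.2, edgeR adjusted p = 0.5). ADAM10, a protease that cleaves AXL from the surface, rose by 0.69 on the log2 scale, and TUB, a bridging ligand of MERTK, rose by 0.39. On library size alone, 7 of the 8 were called, all higher, where 10259 of all 15125 tested genes were called, 6750 higher and 3509 lower.

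Of 13 adaptors shared by many receptor kinases, 13 were tested and 4 changed, SRC (0.44), SOS1 (0.36) and CRKL (0.24) higher and CBLB (-0.44) lower on the log2 fold change scale. The median was 0.03, and the 30.8% called lay under the 66.6% of all genes. On library size alone, 11 of the 13 were called, 10 higher and 1 lower, where 10259 of all 15125 tested genes were called, 6750 higher and 3509 lower.

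**Figure D4:**
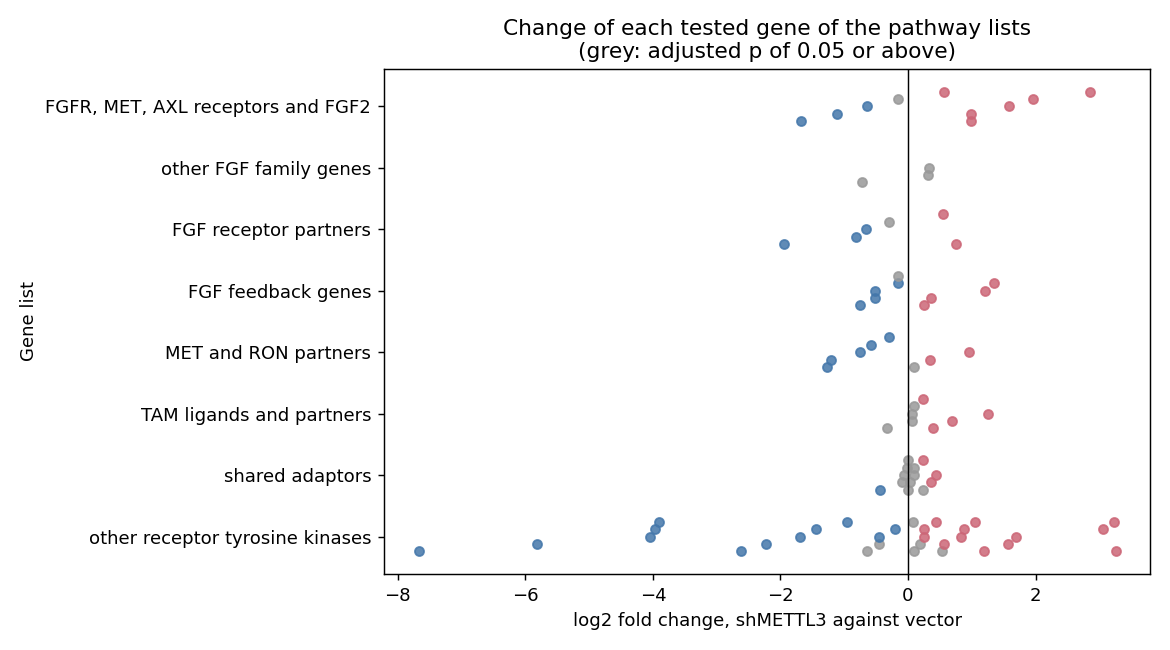
log2 fold change of shMETTL3 against vector (x axis) for the tested genes of each list (y axis), 1 point per gene, red for called rises, blue for called falls and grey for genes that did not pass. The 10 genes at the top run from -1.68 for MST1R to 2.86 for FGFR2, and most shared adaptors are grey and close to 0, while the 2 lowest points of the other kinases, EPHA3 and EPHA7, are fitted values near the floor.

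Of 49 other receptor tyrosine kinases, 31 were tested and 25 changed (80.6%, against 66.6% of all tested genes), 13 higher and 12 lower, 16 of them with an absolute log2 fold change of at least 1, which 17.6% of all tested genes reached. Their median was 0.09, and stayed so with EPHA3 and EPHA7 set at their bounds. The largest rises were in the ephrin receptor EPHB2 (3.26), ROR1 (3.23) and the neurotrophin receptor NTRK3 (3.07), each above the 2.86 of FGFR2. EPHA3 had 87, 94 and 80 counts in vector and 1, 0 and 0 in shMETTL3, at least 31.1-fold lower against a floor of 3 counts per library. EPHA7 had 45, 42 and 37 against 0, 2 and 0 counts, at least 14.8-fold lower, and AATK changed by -4.04 on the log2 scale. The rise of AXL and the fall of MST1R thus lay inside the range of the other receptor kinases, and no test of a difference between the 9 receptors and the other kinases was made.

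**Figure D5:**
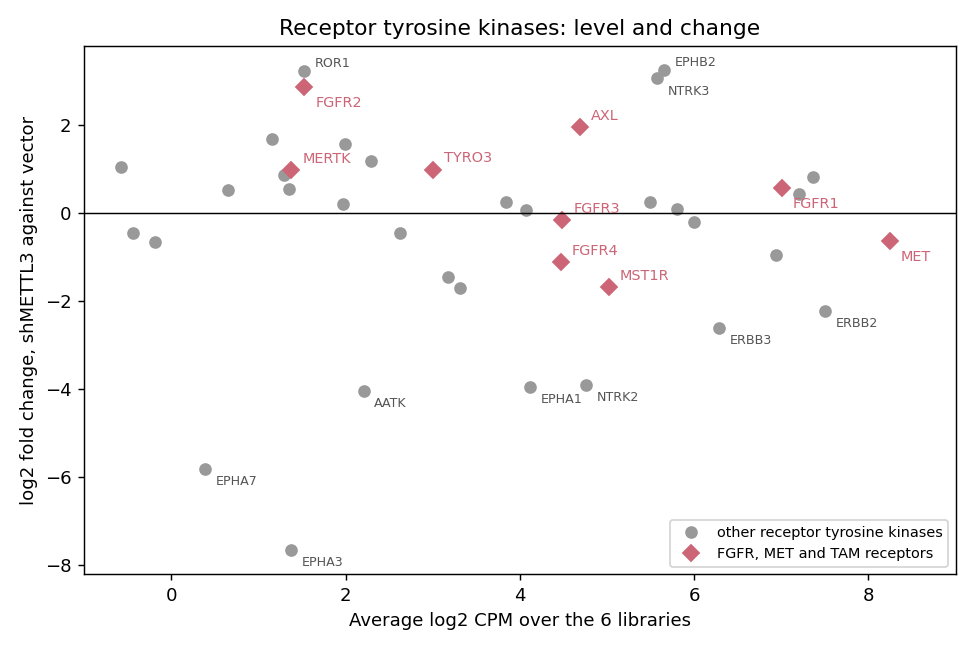
log2 fold change of shMETTL3 against vector (y axis) and average log2 CPM over the 6 libraries (x axis) for the tested receptor tyrosine kinases, with the 9 FGF, MET and TAM receptors as diamonds. EPHA3 and EPHA7 are drawn at fitted values that rest on shMETTL3 counts of at most 2, and FGFR2, at 2.86, is the highest of the 9 diamonds.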

How the data were processed

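RNA-seq of 3 vector and 3 shMETTL3 A549 libraries was analysed from the deposited table of raw counts per gene, which the authors made from reads aligned to hg19 (GRCh37). The submitters' processing notes name cutadapt 3.0, HISAT2 2.2.1, SAMtools 1.13 and HTSeq 0.13.5, while the methods of the study name other versions of HISAT2 and HTSeq. Annotation and strand setting of the counting are not given in the sources used here, which touches genes with antisense partners. Totals were 14931426 to 19108928 counts per library.

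Genes were kept by filterByExpr (15125 of 57781 rows) and tested with edgeR 4.0.16 in R 4.3.3 (TMM, quasi-likelihood test, group only, all 6 libraries, two-sided, Benjamini-Hochberg adjustment over all tested genes, threshold 0.05). A design with 3 against 3 libraries supports no smaller exact permutation p than 0.1. The biological coefficient of variation was 5.97% in vector and 3.53% in shMETTL3. The fit was run on simulated data in which far fewer genes changed than were called here, so it is no check of so broad a change. Alternatives were DESeq2 1.42.0, limma-voom (limma 3.58.1), other scalings, filters and thresholds, a replicate block and leaving out each library.

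The 10 genes and all lists were chosen with earlier results of these data known. Named beside them were METTL3, up to 3 called genes with the largest rises and 3 with the largest falls per list, direct ligands and partners, overlapping genes, and the 3 genes most like AXL by distance of log2(CPM + 0.1). Marker genes, FGF9, FGF11 and FGF12 were named after their values were seen. Gene positions, exon lengths, transcripts and promoters came from GENCODE models and sequence on GRCh37, which matched 89.9% of tested genes. Lengths are those of all merged exons, with the longest transcript as an alternative. Intervals of fold changes are 95% intervals from the fit.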

Additional observations from a re-analysis of the deposited data

How the results depend on the processing

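The 9 called genes kept their direction and their call under the 14 alternatives of scaling, filter, tool, replicate block and left-out library (13 for FGFR2, which dropped out under the filter of at least 10 counts), with log2 fold changes of 1.89 to 2.13 for AXL, -1.75 to -1.51 for MST1R, 2.68 to 3.17 for FGFR2 and 0.711 to 1.35 for MERTK, whose adjusted p rose to 0.0257 at most. On library size alone FGFR3 turned to 0.02 (adjusted p = 0.825), and 1 other FGF family gene (FGF12, higher), 7 TAM partners and 11 shared adaptors were called, where the median of all genes was 0.176. With that scaling 6750 of all 15125 tested genes were called higher and 3509 lower. With an absolute log2 fold change of at least 1 required, 2668 genes and 5 of the 10 passed, and FGFR1, MET, TYRO3 and MERTK did not, since fewer can pass. Leaving out 1 library gave 9410 to 10072 changed genes, 9 of the 10 throughout, and 0 to 1 other FGF family genes, the 1 being FGF9 (lower) without vector 1 or shMETTL3 1 and FGF11 (higher) without vector 2. With no filter 1 such gene, FGF17, was called (0 counts in vector, 3, 11 and 7 in shMETTL3). Per longest transcript FGFR1 held 52.1% (vector) and 70.8% (shMETTL3) of the FGF receptor level, and AXL 80% of the TAM level in shMETTL3. Deviations of same-numbered libraries had correlations of 0.0507, -0.00575 and 0.0332, and those of differently numbered libraries ran from -0.0593 to 0.0253. These values near 0 cannot settle whether a shared number marks a shared batch. With a replicate block 10111 genes and 9 of the 10 changed. The low counts of FGFR2 in vector, MERTK and HGF limit the precision of their fold changes.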
